A study of Rattus norvegicus with 12 samples.

Results

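Voltage-gated and calcium-activated potassium channels were followed in the rat striatum as 49 genes of a table of 17337. The 49 genes were chosen by symbol. They cover the Kv families (*Kcna*, *Kcnb*, *Kcnc*, *Kcnd*, *Kcnf*, *Kcng*, *Kcnh*, *Kcnq*, *Kcns*, *Kcnv*), the calcium-activated and sodium-activated families (*Kcnn*, *Kcnma*, *Kcnmb*, *Kcnt*) and the auxiliary *Kcnab* and *Kcnip* subunits, with a mean count of at least 10 over 12 libraries. Of 57 matching symbols, 8 lay under that minimum (*Kcna7*, *Kcna10*, *Kcnh8*, *Kcnmb1*, *Kcnmb2*, *Kcnmb3*, *Kcnq1*, *Kcnv2*). *Kcnq1* had the highest mean of these, 8.25 counts, and *Kcns3* the lowest among the members, at 12.2 in the mean. All 12 rats were adult male wild-type Sprague-Dawley rats, aged 8 weeks when training began, and by their labels all had self-administered methamphetamine (MA) for 16 days. The MA12 group (n = 4) was taken after 12 h of abstinence, and the MA24 group (n = 4) after 24 h. The remaining group (n = 4) is labelled non-addicted after the same 16 days, with methamphetamine as its treatment. The study's methods describe rats that self-administered saline and rats taken with no set abstinence, but no group called non-addicted. Whether the non-addicted rats are one of those groups, the saline controls included, is not given in the sources used here, nor is when their tissue was taken, so what the comparisons with them contrast beyond their labels cannot be said. The model gives short daily access to the drug. RNA came from whole striatum, 1 library a rat, and all libraries carry 1 batch date.

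Potassium channels of these families return a neuron to rest after an action potential and set how readily it fires. Kv channels open with depolarisation, SK and BK channels with a rise in intracellular calcium, and Slack channels with intracellular sodium. Striatal projection neurons are held at a negative resting potential, and their approach to firing is shaped by slowly inactivating Kv1, transient Kv4 and M-type Kv7 currents, while fast-spiking interneurons depend on Kv3 channels. Beta subunits and potassium channel-interacting proteins (KChIPs) are not pores. They bind the pore-forming subunits and alter their surface expression and inactivation. The products of *Kcnf*, *Kcng*, *Kcns* and *Kcnv* do not form channels alone and join Kv2 subunits in mixed tetramers.

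Library totals lay between 17908962 and 23850284 counts, and the 49 genes took between 0.256% and 0.329% of them. That share was 0.322% to 0.329% in MA12, 0.256% to 0.296% in MA24 and 0.286% to 0.320% in non-addicted rats, so MA12 and MA24 did not overlap. Counts of any 2 rats of a group differed by more than sampling noise (chi-square per degree of freedom 9.96 to 28.9 over 18 pairs). MA24 rat 14N stood apart. It had the lowest level of its group in 30 of the 49 genes (61.2%), against 29.1% of 12649 genes in all, and non-addicted rat 9 was lowest in 25 (51.0%, against 29.9%). Rat numbers end in N for every MA24 rat, for 2 of 4 MA12 rats and for no non-addicted rat, and what N stands for is not given in the sources used here. If the last sessions ended at the same clock hour, which is not given, time of day also differs by 12 h between MA12 and MA24. Length of abstinence and time of day cannot be told apart here. The markers of striatal projection neurons were present in every rat (10 of 10 genes). Their summed level was 14150 to 18100 CPM in MA12, 16860 to 18640 in MA24 and 14210 to 17140 in non-addicted rats. *Ppp1r1b* was the largest part of that sum (5898 to 8555 CPM in MA12, 8115 to 9930 in MA24). *Pde10a* was wholly lower in MA24 (299.2 to 546.3 CPM, against 574.6 to 702.6 in MA12). *Rgs9* was wholly higher in MA24 (971.8 to 1127 CPM, against 682.8 to 950.5 in MA12). The MA12 and MA24 ranges of each other gene of that list overlapped. The part of these moves in the channel results was not tested.

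Between MA12 and MA24, the M-channel gene *Kcnq3*, the Kv1 gene *Kcna2*, the silent subunit gene *Kcns2* and the ether-a-go-go gene *Kcnh5* were among the members that fell, and the KChIP gene *Kcnip2* rose. In all, 6 members had an adjusted p below 0.05 (edgeR, quasi-likelihood, adjusted after Benjamini and Hochberg over 10754 genes) and changed by 1.5 or more as a fold change (FC). The variance filter of that fit removed 1 member, so 48 members were tested. The 5 that fell are 10.4% of them, against 1.72% of all genes tested, and the 1 that rose is 2.08%, against 0.735%. At any FC, 8 members fell (16.7%, against 3.32%) and 3 rose (6.25%, against 1.84%), with *Kcnf1* and *Kcnma1* among the additional members that fell and *Kcnd1* and *Kcnt1* as those that rose. The 4 MA24 rats lay wholly below the 4 MA12 rats in 12 members (25%, against 8.32% of all genes), and wholly above in 4 (8.33%, against 7.17%). Counting every member whether tested or not, 37 of 49 log2FC values were below 0, with a median of -0.18. Over 12652 genes without the variance filter the median was -0.0049, and 50.8% lay below 0. In whole tissue, fewer cells of a type and less RNA per cell cannot be told apart.

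**Figure D1:**
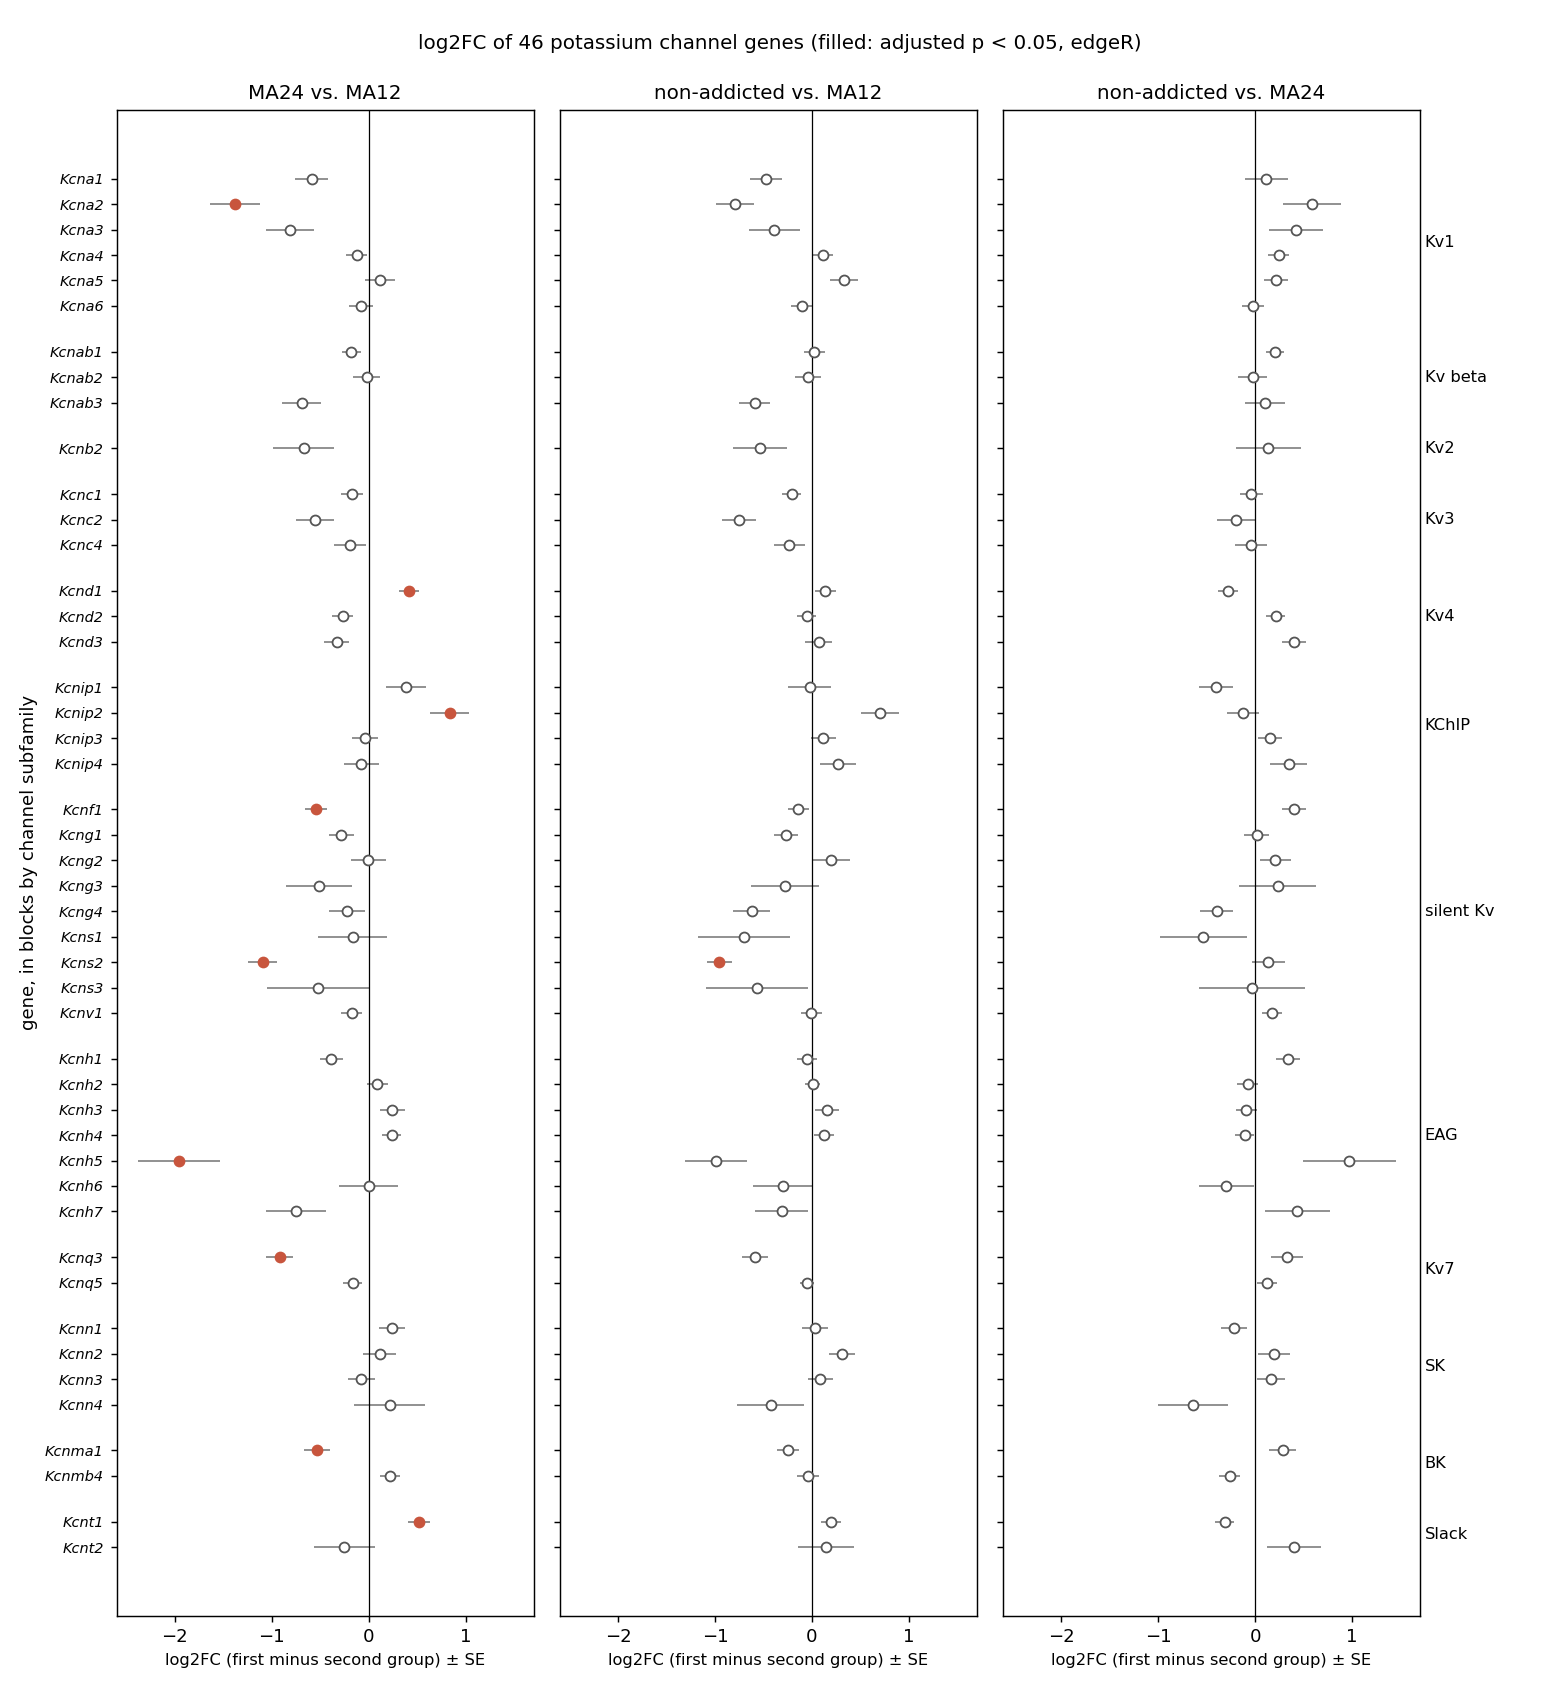
log2FC (first group minus second, points) with its standard error (bars) for 46 of the genes in blocks by subfamily, 1 panel for each comparison. Filled points passed an adjusted p of 0.05 in edgeR: 9 of those shown in MA24 vs. MA12, *Kcns2* alone in non-addicted vs. MA12 and none in non-addicted vs. MA24.

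Levels below are counts scaled to library size with TMM over all 12 libraries (CPM). They are given for MA12 rats 21, 31, 4N and 7N, MA24 rats 9N, 14N, 15N and 16N, and non-addicted rats 9, 11, 12 and 13, in that order. CPM is not corrected for gene length, so a level is compared between rats and not between genes. For a single gene, the exact two-sided permutation test over the splits of 4 against 4 rats cannot go below p = 0.0286, which each of the 11 called genes reached. Any gene whose groups do not overlap reaches that value, called or not (*Kcna1* and *Kcnq5* are such uncalled members). It is therefore not separate support for the calls.

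Kv7 subunits carry the M-current, a non-inactivating current that muscarinic receptors shut, and *Kcnq3* encodes one of its neuronal subunits. *Kcnq3* stood at 93.9, 82.7, 95.8 and 80.6 CPM in MA12, 60.1, 33.3, 43.3 and 49.8 in MA24, and 42.5, 58.1, 59.1 and 76.4 in non-addicted rats. Every MA24 rat lay below every MA12 rat, and so did every non-addicted rat. In MA24 *Kcnq3* fell by 0.92 on the log2 scale (SE 0.14, adjusted p = 0.00471, edgeR). *Kcnq5*, which encodes another neuronal subunit of the family, had 150.5, 152, 163 and 152 CPM in MA12 and 149, 114, 147 and 139.5 in MA24. These groups did not overlap either, but the log2FC of -0.17 (SE 0.10) did not pass (adjusted p = 0.316, edgeR), and non-addicted levels were 140.4 to 162 CPM.

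Kv1 channels sit largely on axons and set spike threshold. *Kcna2* (Kv1.2) stood at 21.9, 19.9, 17.5 and 14.2 CPM in MA12, 10.5, 2.61, 7.20 and 7.82 in MA24, and 6.20, 10.8, 11.7 and 13.9 in non-addicted rats. All MA24 and non-addicted rats lay below the lowest MA12 rat. In MA24 *Kcna2* fell by 1.38 (SE 0.26, adjusted p = 0.00845, edgeR). Rat 14N, with 53 counts, was the lowest of its group, and without it *Kcna2* fell by 1.11 and was still called. Of the other Kv1 genes none passed. *Kcna1* (Kv1.1), which pairs with Kv1.2 in axonal channels, had a log2FC of -0.59 (SE 0.17, adjusted p = 0.0512, edgeR) and *Kcna3* of -0.81 (SE 0.24, adjusted p = 0.0584), both with MA24 wholly below MA12. The within-rat ratio of *Kcna2* to *Kcna1* was 0.504 ± 0.088 in MA12, 0.278 ± 0.059 in MA24 and 0.407 ± 0.049 in non-addicted rats (SD, n = 4), and MA12 (0.401 to 0.590) did not overlap MA24 (0.191 to 0.323).

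*Kcna4* (Kv1.4), which gives a fast-inactivating current, had 74.2, 65.3, 63.7 and 77.4 CPM in MA12, 66.8, 66.1, 69.6 and 54.5 in MA24, and 83.3, 69.5, 78.5 and 73.6 in non-addicted rats. Its groups overlapped (MA24 vs. MA12 log2FC -0.13, SE 0.11, adjusted p = 0.490, edgeR). *Kcna5* and *Kcna6* had log2FC values of 0.11 and -0.08. Among the beta subunits, *Kcnab2* had 137 to 191 CPM in MA12, 117 to 196 in MA24 and 119.6 to 194 in non-addicted rats, with a log2FC of -0.02 (95% interval -0.31 to 0.26). *Kcnab3* had a log2FC of -0.69 (SE 0.20, adjusted p = 0.0543, edgeR), with overlapping groups of 11.3 to 16.9 CPM in MA12 and 5.27 to 11.8 in MA24, and *Kcnab1* of -0.18 (adjusted p = 0.261).

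Kv2 channels carry the main delayed rectifier of neuronal cell bodies. *Kcnb2* had a log2FC of -0.67 (SE 0.31, adjusted p = 0.197). The silent subunits that join Kv2 held 9 members, and all 9 had a log2FC below 0 in MA24 vs. MA12, from -1.09 to -0.0070. Only 2 of the 9 passed the test. *Kcns2* (Kv9.2) had 36.9, 34.98, 39.9 and 35.8 CPM in MA12, 22.5, 11.6, 16.8 and 18.1 in MA24, and 18.8, 14.7, 22.2 and 20.6 in non-addicted rats. Its 8 MA24 and non-addicted rats all lay below the 4 MA12 rats. It had the smallest adjusted p of the 49 genes, with a fall of 1.09 (SE 0.15, adjusted p = 0.00286, edgeR). *Kcnf1* (Kv5.1) stood at 93.9, 80.8, 89.1 and 82.7 CPM in MA12, 64.4, 48.5, 57.6 and 67.2 in MA24, and 65.5, 89.4, 86.8 and 73.6 in non-addicted rats. MA24 lay below MA12 in every rat, and *Kcnf1* fell by 0.54 (SE 0.11, adjusted p = 0.0105, edgeR). The non-addicted rats reached into the MA12 range.

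**Figure D2:**
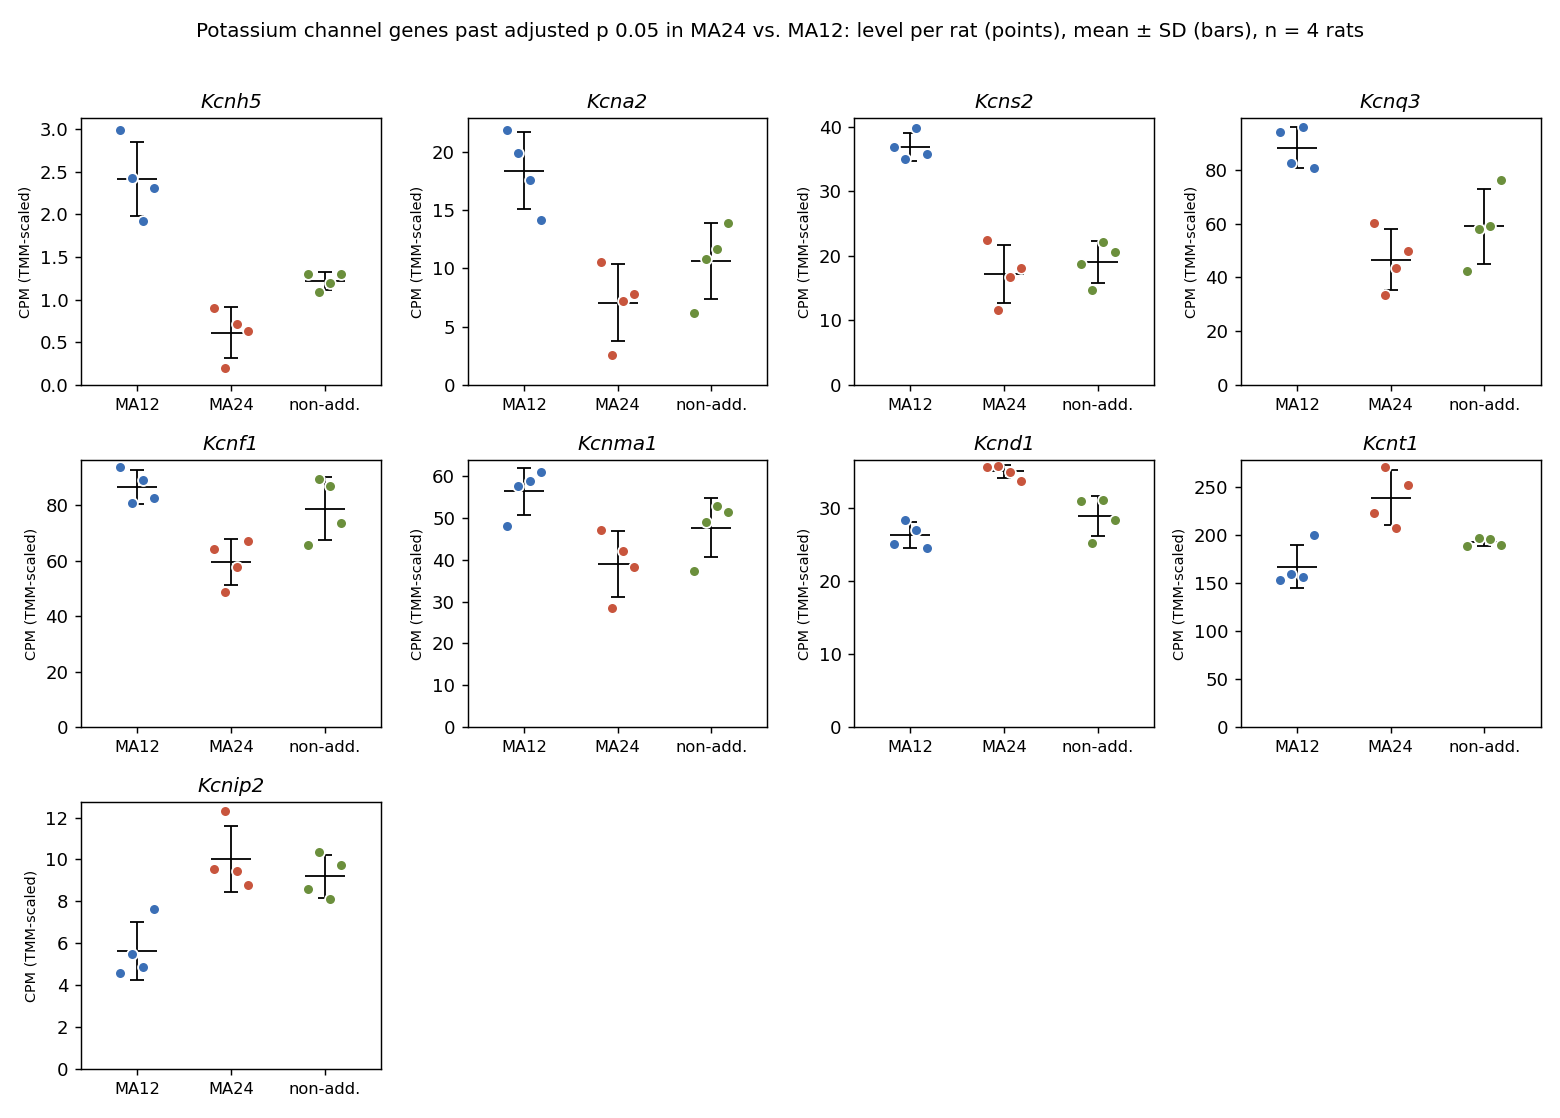
CPM (TMM-scaled, linear axes from 0) of 9 genes past an adjusted p of 0.05 in MA24 vs. MA12, with a point for each rat and the mean ± SD (bars, n = 4). MA24 lies wholly below MA12 in 6 genes, such as *Kcns2* (11.6 to 22.5 against 34.98 to 39.9), and wholly above it in *Kcnd1*, *Kcnt1* and *Kcnip2*.

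Kv4 channels with KChIPs give the transient A-type current of dendrites and cell bodies. *Kcnd2* (Kv4.2) had 212, 178, 226 and 201 CPM in MA12 and 190.0, 164, 178 and 146 in MA24, with 186 to 205 in non-addicted rats. The MA12 and MA24 groups overlapped at their edges, and the log2FC of -0.27 (SE 0.11) did not pass (adjusted p = 0.135, edgeR). *Kcnd3* (Kv4.3) had 32.1, 31.4, 26.0 and 21.5 CPM in MA12, 23.6, 20.1, 23.5 and 21.3 in MA24, and 30.9, 30.0, 33.5 and 22.8 in non-addicted rats. Here too the groups overlapped (MA24 vs. MA12 log2FC -0.33, SE 0.13, adjusted p = 0.133). *Kcnd1* (Kv4.1) went the other way, with 25.2, 28.5, 27.0 and 24.6 CPM in MA12, 35.6, 35.9, 35 and 33.8 in MA24, and 31.0, 25.3, 31.1 and 28.5 in non-addicted rats. All 4 MA24 rats lay above the other 8, and *Kcnd1* rose by 0.42 (SE 0.10, adjusted p = 0.0252, edgeR).

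*Kcnip2* encodes KChIP2, which binds Kv4 subunits and raises their surface level. It had 4.58, 5.47, 4.89 and 7.62 CPM in MA12, 9.55, 12.3, 9.46 and 8.77 in MA24, and 8.601, 10.4, 8.12 and 9.73 in non-addicted rats. Every MA24 and non-addicted rat lay above the highest MA12 rat. *Kcnip2* rose by 0.83 in MA24 (SE 0.20, adjusted p = 0.0230, edgeR). Without rat 14N, the highest of its group here, the log2FC was 0.72 and did not pass (adjusted p = 0.0719, edgeR). *Kcnip1*, *Kcnip3* and *Kcnip4* had log2FC values of 0.38, -0.04 and -0.08, and none passed. The within-rat ratio of *Kcnip2* to *Kcnd2* was 0.0280 ± 0.0079 in MA12, 0.0597 ± 0.011 in MA24 and 0.0469 ± 0.0067 in non-addicted rats (SD, n = 4), with no overlap between MA12 (0.0217 to 0.0380) and MA24 (0.0503 to 0.0754).

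The ether-a-go-go family includes the slowly gated EAG, ERG and ELK channels. *Kcnh5* (EAG2) had the largest change of the 49 genes and low counts. It had 2.99, 2.42, 1.93 and 2.32 CPM in MA12 (41 to 71 counts), 0.903, 0.197, 0.720 and 0.634 in MA24 (4 to 21 counts), and 1.30, 1.09, 1.19 and 1.30 in non-addicted rats (22 to 29 counts). The 3 groups did not overlap, in the order MA12, non-addicted, MA24. In MA24 *Kcnh5* fell by 1.96 (SE 0.42, adjusted p = 0.0147, edgeR), and by 1.67 without rat 14N (adjusted p = 0.0316), whose 4 counts leave a large counting error. DESeq2 gave *Kcnh5* no adjusted p. *Kcnh4* (ELK1), a gene known for its striatal expression, had 58.2, 65.9, 69.5 and 65.4 CPM in MA12, 75.8, 73.8, 74.8 and 80.2 in MA24, and 64.8, 65.1, 73.1 and 80.5 in non-addicted rats. MA24 lay above MA12 in every rat, but the log2FC of 0.23 (SE 0.10) did not pass (adjusted p = 0.144, edgeR). *Kcnh1* (EAG1) had a log2FC of -0.39 (SE 0.12, adjusted p = 0.0652, edgeR), and the other 4 members of the family ranged from -0.75 for *Kcnh7* to 0.24 for *Kcnh3*.

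Promoters were looked up for the 49 genes in RefSeq's rat assembly GRCr8, which is not the build of the counts. There were 38 windows of 300 bases (250 before to 50 after a start) for 34 genes. The windows of *Kcna2*, *Kcnh5* and *Kcnip2* are shown because these 3 members passed both thresholds in MA24 vs. MA12 and have a window, and *Kcnq3* and *Kcns2* have none. They run 5′ to 3′ on the gene's own strand, and capitals mark the GC box letters (GGGCGG) and the CCAAT box on either strand.
Kcna2, chr2:197393280-197393579, plus strand: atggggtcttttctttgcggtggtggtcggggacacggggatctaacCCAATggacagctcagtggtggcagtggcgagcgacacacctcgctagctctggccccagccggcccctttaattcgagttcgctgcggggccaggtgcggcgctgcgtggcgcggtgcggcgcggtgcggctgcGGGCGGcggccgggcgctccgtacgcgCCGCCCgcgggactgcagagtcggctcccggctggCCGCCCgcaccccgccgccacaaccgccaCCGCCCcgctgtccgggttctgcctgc
Kcnh5, chr6:99643807-99644106, minus strand: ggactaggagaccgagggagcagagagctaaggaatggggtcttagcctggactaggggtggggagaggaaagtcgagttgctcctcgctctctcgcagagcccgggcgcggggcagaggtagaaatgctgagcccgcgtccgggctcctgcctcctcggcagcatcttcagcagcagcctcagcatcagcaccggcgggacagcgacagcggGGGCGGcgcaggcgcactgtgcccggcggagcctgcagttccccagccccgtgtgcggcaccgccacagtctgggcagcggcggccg
Kcnip2, chr1:254613849-254614148, minus strand: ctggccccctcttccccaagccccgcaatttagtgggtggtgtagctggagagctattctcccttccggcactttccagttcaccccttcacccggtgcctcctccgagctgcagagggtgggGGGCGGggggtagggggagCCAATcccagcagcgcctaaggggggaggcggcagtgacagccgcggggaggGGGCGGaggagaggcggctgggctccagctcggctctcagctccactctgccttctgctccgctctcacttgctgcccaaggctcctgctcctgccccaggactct
The *Kcna2* window held 4 GC boxes and 1 CCAAT box, that of *Kcnh5* 1 GC box, and that of *Kcnip2* 2 GC boxes and 1 CCAAT box, with no overlap between motifs. Of the other called genes with a window, *Kcnma1* and *Kcnt1* had GC box letters in one. *Kcnt1* also had a CCAAT box, and the window of *Kcnf1*, which fell, held neither motif. Over the members, 23 of 38 windows (60.5%) held a GC box, against 33.1% of 33469 windows of all genes, and 11 (28.9%) a CCAAT box, against 37.5%. The member windows had a median GC content of 66.3%, against 51.7% over all. None held a TATA box (TATAAA, 14.2% of all windows) or the cyclic AMP response element TGACGTCA (1.83% of all), and 1, that of *Kcnh4*, held the E-box CACGTG (6.42% of all). Matches are counts of letters and not evidence of binding.

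Kv3 channels switch fast and let interneurons fire at high rates. *Kcnc1* (Kv3.1) had 73.7, 64.7, 68.2 and 68.3 CPM in MA12, 67.4, 47.4, 65.2 and 63.9 in MA24, and 53.6, 55.4, 59.9 and 69.5 in non-addicted rats. The groups overlapped, with a log2FC of -0.17 in MA24 vs. MA12 (SE 0.11, adjusted p = 0.355, edgeR). *Kcnc2* (Kv3.2) had 15.9, 10.4, 10.4 and 11.8 CPM in MA12, 11.7, 7.10, 7.66 and 6.44 in MA24, and 6.88, 6.81, 6.89 and 8.27 in non-addicted rats. MA24 rat 9N lay inside the MA12 range, and the log2FC of -0.55 (SE 0.20) did not pass (adjusted p = 0.104, edgeR). Without that rat it was -0.78 (adjusted p = 0.0197, edgeR), and this was the only 1 of 17 alternatives in which *Kcnc2* passed. Leaving out the rat that overlaps favours a pass, and that fit called 7.53% of all genes at any FC. *Kcnc4* had a log2FC of -0.19 (SE 0.17, adjusted p = 0.495, edgeR).

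Of the calcium-activated genes, *Kcnma1*, the pore of the large-conductance BK channel, had 48.2, 57.8, 58.8 and 61.0 CPM in MA12, 47.2, 28.4, 42.1 and 38.3 in MA24, and 37.4, 49.1, 53.0 and 51.4 in non-addicted rats. The lowest MA12 rat (48.2 CPM) was just above the highest MA24 rat (47.2 CPM), and *Kcnma1* fell by 0.53 (SE 0.13, adjusted p = 0.0266, edgeR). Its neuronal beta subunit gene *Kcnmb4* had 44.4, 49.1, 56.0 and 56.9 CPM in MA12, 56.3, 61.3, 57.8 and 64.8 in MA24, and 58.2, 45.5, 44.6 and 52.9 in non-addicted rats. It did not pass in MA24 vs. MA12 (log2FC 0.22, SE 0.11, adjusted p = 0.215, edgeR). The within-rat ratio of *Kcnma1* to *Kcnmb4* was 1.10 ± 0.055 in MA12, 0.656 ± 0.16 in MA24 and 0.970 ± 0.24 in non-addicted rats (SD, n = 4), and the lowest MA12 rat (1.05) lay above the highest MA24 rat (0.840). The remaining ratio taken, *Kcnab3* to *Kcnab1*, overlapped between MA12 (0.0226 to 0.0313) and MA24 (0.0107 to 0.0241). In the ratios that did not overlap, the first gene (*Kcna2*, *Kcnip2* or *Kcnma1*) was itself called in MA24 vs. MA12.

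SK channels contribute to the medium afterhyperpolarisation that follows a spike, and no SK gene was called in any comparison. *Kcnn2* (SK2) had 11.3, 12.45, 11.1 and 14.2 CPM in MA12, 11.6, 13.9, 9.97 and 17.5 in MA24, and 13.6, 17.2, 14.0 and 16.2 in non-addicted rats, with an MA24 vs. MA12 log2FC of 0.11 (95% interval -0.24 to 0.47). *Kcnn3* (SK3) had 18.2, 18.5, 19.4 and 14.7 CPM in MA12, 17.5, 13.0, 18.5 and 18.2 in MA24, and 17.2, 19.7, 22.2 and 16.5 in non-addicted rats (log2FC -0.08, 95% interval -0.37 to 0.21). All groups overlapped in both genes. *Kcnn1* and *Kcnn4* had log2FC values of 0.24 and 0.21. *Kcnt1*, which encodes the sodium-activated Slack channel, had 153, 159, 157 and 200.2 CPM in MA12, 224, 272, 208 and 253 in MA24, and 189, 197, 196 and 189.5 in non-addicted rats. All MA24 rats lay above the other 8. *Kcnt1* rose by 0.51 (SE 0.11, adjusted p = 0.0154, edgeR), and *Kcnt2* had a log2FC of -0.25 (SE 0.31).

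The calls in MA24 vs. MA12 depended in part on rat number kind and on single rats. Among the N-numbered rats alone (2 MA12 against 4 MA24), 5 members were called at any FC (10.6%, against 1.22% of all genes in the same fit), *Kcna2*, *Kcnma1*, *Kcnq3*, *Kcns2* and *Kcnip1*. *Kcnip1* was not called with all 8 rats, and was chosen here after its values were seen (log2FC 0.92, adjusted p = 0.0157, edgeR). With the kind of number as a covariate, 3 were called (6.25%, against 0.456% of all genes), *Kcnq3*, *Kcns2* and *Kcnip1*. Each of the 9 called genes in the plot of these choices kept its sign, and *Kcna2* moved from -1.38 to -1.17 and *Kcnh5* from -1.96 to -1.78 under the covariate. Without rat 14N 7 of the 11 remained called (15.2%, against 2.28% of all genes). Those that did not pass included *Kcnd1* (log2FC 0.40 without and 0.42 with that rat, adjusted p = 0.0573), *Kcnip2* (0.72 and 0.83, adjusted p = 0.0719) and *Kcnma1* (-0.41 and -0.53, adjusted p = 0.0614, edgeR), each with the same sign and the first with nearly the same size. Without MA12 rat 21 the count at any FC was also 7 (14.6%, against 2% of all genes), and without MA24 rat 9N it was 16 (33.3%, against 7.53%), so the share of all genes called moved with that of the members. *Kcnq3* and *Kcns2* were called in all 17 alternatives run, with adjusted p up to 0.0204 and 0.0179.

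**Figure D3:**
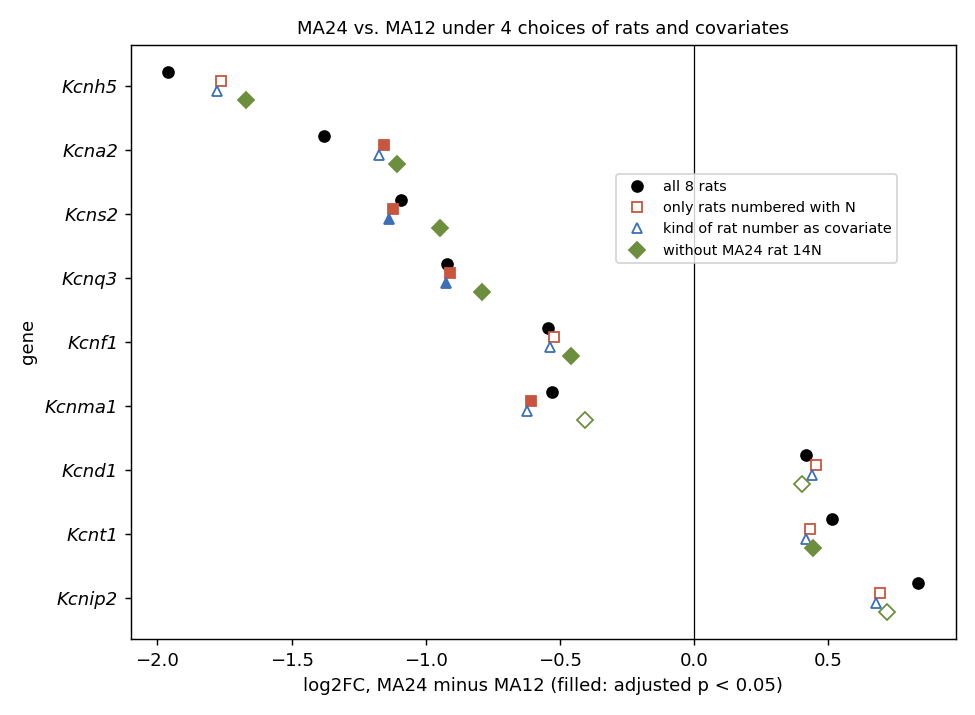
log2FC (MA24 minus MA12) of 9 called genes with all 8 rats, with N-numbered rats alone, with the kind of number as a covariate and without rat 14N, filled where the adjusted p was under 0.05. All points of a gene lie on 1 side of 0, and *Kcnq3* and *Kcns2* are filled throughout.

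Markers of other cell types moved with MA24 vs. MA12 in part. Of 5 thalamic markers 4 are in the table, all with counts in every rat, and their summed level was 28.9 to 33.4 CPM in MA24, 33.8 to 62.6 in MA12 and 27.6 to 73.5 in non-addicted rats. Among them *Prkcd*, a protein kinase C gene of many thalamic neurons, was called lower in MA24 (16.2 to 20.1 CPM, against 19.2 to 50.3 in MA12). *Prkcd* was the largest part of that sum. Its MA24 and MA12 ranges overlapped, as did those of each other thalamic marker in the table, none of which was called. Among 7 interneuron markers *Nos1* was called lower (10.4 to 28.9 against 25.9 to 41.4 CPM, and 10.7 to 27.1 in non-addicted rats), while *Pvalb* ranged from 12.9 to 19.0 CPM in MA24 and from 11.0 to 19.4 in MA12, and the summed list overlapped (940.5 to 1099 against 966.7 to 1085). *Gad1* was the largest part of that sum (555.4 to 714 CPM in MA24, 640.6 to 725.1 in MA12), so the sum says little of *Nos1* or *Pvalb*. Cortical markers summed to 7.98 to 16.1 CPM in MA24 and 6.90 to 10.5 in MA12, with a count in every rat for 3 of the 7 genes and with *Neurod6*, *Neurod2* and *Rtn4rl2* at 0 in some rat. No other gene of the 9 marker lists was called in MA24 vs. MA12. The part of these cell types in the channel results was not tested.

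Against MA12, the rats labelled non-addicted had 1 potassium channel gene called. *Kcns2* was lower by a log2FC of -0.95 (SE 0.13, adjusted p = 0.00292, edgeR), 1 of 46 members tested (2.17%, against 0.149% of 10758 genes lower with FC 1.5, and 0.167% at any FC). No member was higher (0.102% of all genes by either rule), and at an unadjusted p below 0.05 3 members were higher (6.52%, against 5.31% of all genes) and 12 lower (26.1%, against 7.03%). The variance filter removed 3 members, *Kcnh2* and *Kcnq5* among them. Levels lay wholly below MA12 in 6 tested members (13%, against 3.6% of all genes), *Kcna1*, *Kcna2*, *Kcnc2*, *Kcnh5*, *Kcnq3* and *Kcns2*, and wholly above in 1, *Kcnip2* (2.17%, against 3.5%). Of these, *Kcnc2* (log2FC -0.75, SE 0.17, adjusted p = 0.0735), *Kcnq3* (-0.59, SE 0.14, adjusted p = 0.0756) and *Kcna2* (-0.79, SE 0.19, adjusted p = 0.0815) came nearest to passing in edgeR. Without non-addicted rat 13 the count at any FC was 4 (8.89%, against 0.947% of all genes), and without MA12 rat 7N it was 5 (11.1%, against 1.06%). DESeq2 called 6 members (13%, against 1.71% of all genes in the same fit) and edgeR's likelihood ratio test 4 (8.7%, against 1.52%), with these 3 and *Kcns2* in each. Both methods also called more of all genes than the quasi-likelihood test. Over the 49 genes the median log2FC was -0.06, with 32 below 0 (65.3%, against 52.0% of 12657 genes). Comparisons with MA12 share its 4 rats. Endothelial markers summed to 286 to 403 CPM in non-addicted and 387 to 504 in MA12 rats, with *Kdr* called lower (8.18 to 12.5 against 15.4 to 27.4 CPM), and ependymal markers to 38.0 to 93.6 and 24.2 to 64.1 CPM, with none called and *Ttr* at 0 in some rat. Their part in the channel values was not tested.

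Between non-addicted and MA24 rats 0 of 48 members were called by edgeR's quasi-likelihood test or its likelihood ratio test, and 0 of 47 by DESeq2. At any FC the likelihood ratio test called 2.52% of all genes and DESeq2 2.5%. At an unadjusted p below 0.05, 6 members were higher (12.5%, against 9.33% of all genes) and 5 lower (10.4%, against 8.16%) in non-addicted rats. By the adjusted p of the quasi-likelihood test, 0.326% of 10744 genes were higher and 0.13% lower with FC 1.5, and 0.382% and 0.168% at any FC. *Kcnh5* was the 1 tested member wholly higher in the non-addicted rats (2.08%, against 5.09% of all genes), with a log2FC of 0.97 (95% interval -0.04 to 1.98). *Kcnd1* and *Kcnt1* were wholly lower (4.17%, against 4.89%), with log2FC values of -0.28 (95% interval -0.50 to -0.05) and -0.31 (95% interval -0.52 to -0.11). *Kcnf1* had the smallest adjusted p (log2FC 0.40, SE 0.12, adjusted p = 0.125, edgeR). The median over the 49 genes was 0.14, against 0.0029 over 12640 genes. Endothelial markers summed to 286 to 403 CPM in non-addicted and 461 to 508 in MA24 rats, where *Cldn5* and *Kdr* were called, ependymal *Foxj1* and *Rsph1* were called higher and the myelin gene *Mbp* lower in non-addicted rats, and their part in the channel values was not tested.

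**Figure D4:**
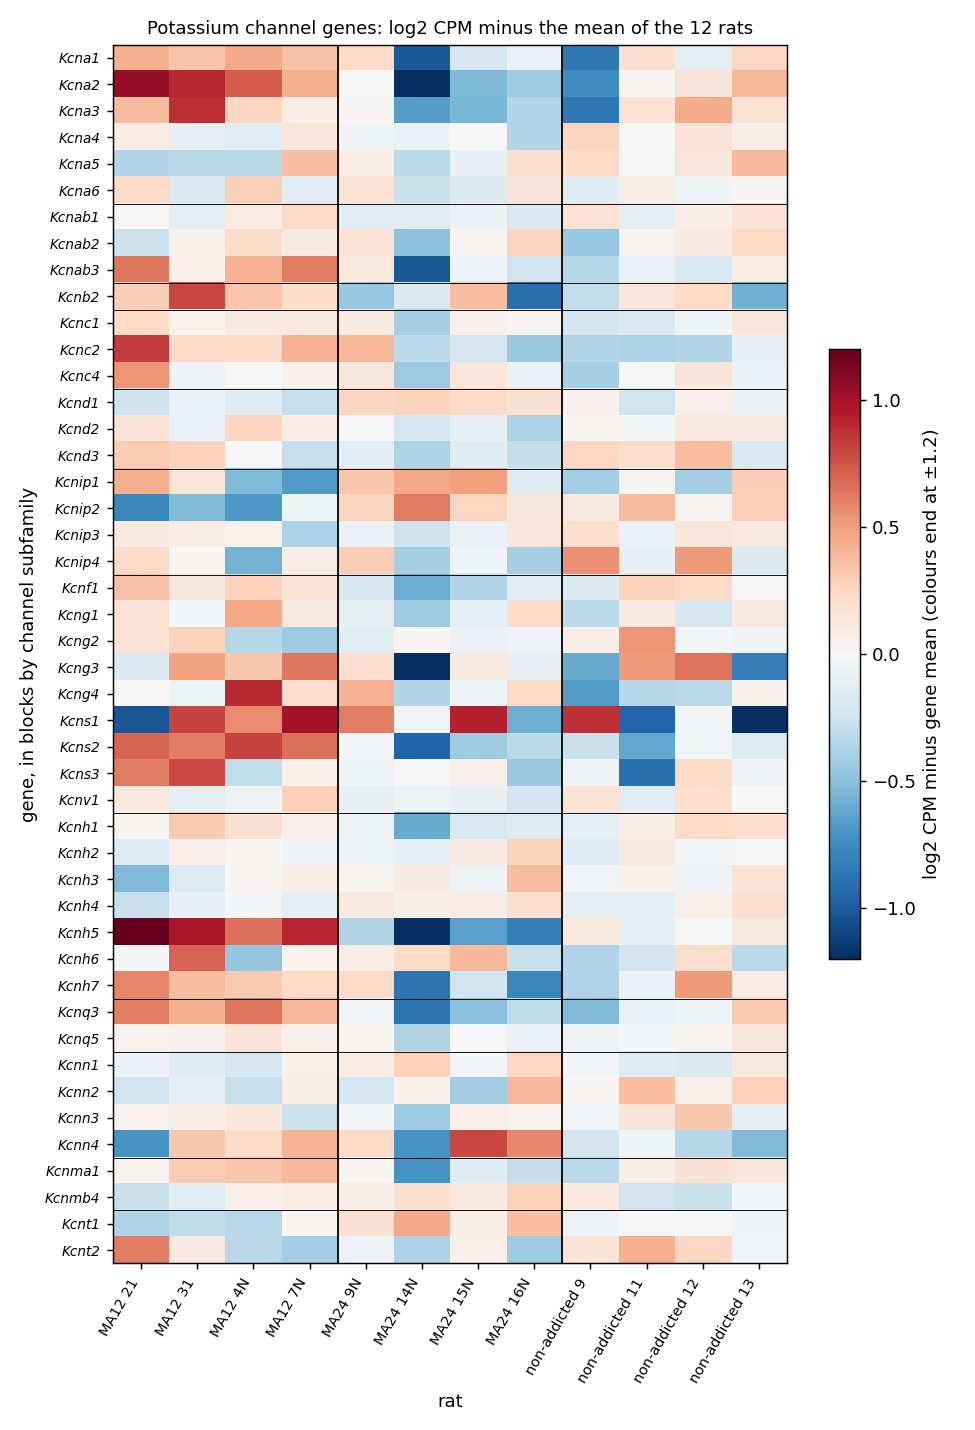
log2 CPM of each of 46 genes in each of the 12 rats, minus the gene's mean over the rats (colour, ending at ±1.2). *Kcna2*, *Kcnq3* and *Kcns2* are above their means in all 4 MA12 rats.

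Rats of a group varied more in these genes than in most. The median SD within groups was 0.241 on the log2 scale for the 49 members and 0.177 for 12649 genes, as a description. *Kcns1* varied most (1.003), with 0.729 to 7.34 CPM across rats of all groups, followed by *Kcng3* (0.612) and *Kcna2* (0.593). *Kcnd1* (0.10) was among the steadiest.

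Partner proteins of these channels were taken from a list of 28 genes, such as the Kv4 partners *Dpp6* and *Dpp10*, the Kv2 partner *Amigo1* and the axonal scaffolds that hold Kv1 and Kv7. Of these, 26 are among the 17337 genes, and 23 had a fit in MA24 vs. MA12. Of those 23, 17 were in the main fit and the others took values from the fit without the variance filter. At any FC 0 of the 23 rose and 1 fell, against 1.84% and 3.32% of all genes in the main fit. The 1 that fell was *Adam23*, a membrane receptor of the LGI1 protein that modulates Kv1 channels (log2FC -0.59, SE 0.14, adjusted p = 0.0195, edgeR). The median was -0.07. *Dlg2* (log2FC -0.40, SE 0.12, adjusted p = 0.0680), *Dpp10* (-0.59, SE 0.20, adjusted p = 0.0823) and *Dpp6* (-0.31, SE 0.11, adjusted p = 0.0970), all in edgeR, did not pass. Of the 24 with a fit in each other comparison, 0 were called, with the smallest adjusted p at 0.0878 against MA12 and 0.227 against MA24 (edgeR). Of all genes, 0.102% were called higher and 0.167% lower at any FC against MA12, and 0.382% and 0.168% against MA24.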

How the data were processed

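The authors prepared poly-A libraries, trimmed paired reads (Cutadapt), mapped them with STAR 2.7.0e against rn6 and deposited raw read counts per gene, without normalization. The submitters' processing notes list featureCounts and HTSeq 0.12.4. Strand handling is not given in the sources used here, so genes that overlap or share near-identical sequence are uncertain. Counts were analysed in R 4.3.3 with edgeR 4.0.16 (TMM, glmQLFit and glmQLFTest, 2 groups in each fit) on genes averaging above 4 counts in the 8 libraries compared. The 15% least variable in log2 CPM were then removed. P-values were adjusted over all genes tested. Members that the variance filter removed take values from the fit without it. The fit was run on simulated counts with planted changes, without the variance filter and with no aberrant rat or rat number kind. That run does not bear on calls that depend on single rats. Per-rat values are given for members past an adjusted p of 0.05 and for subunits known from striatal neurons. The members, gene lists and tests were chosen with earlier results of these data known. Alternatives were RLE factors, DESeq2 1.42.0, edgeR's likelihood ratio test, no or stricter filters, a joint fit of all groups, the kind of rat number and leaving out each rat. Leaving out rats 14N and 9 together and the within-rat ratios (no test) were added after seeing the data. Rats are separate animals, and nothing pairs them across groups. Some members and marker genes enter the counts but are not reported here by name.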

Additional observations from a re-analysis of the deposited data

Results flagged for a closer look

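In 5 of 60 sets of 4 rats (20 genes in 3 groups), 1 rat lay far from the other 3, by the share of the whole log2 CPM range that its gap took. Chance gives this in about 1 of 20 sets, or 3 of 60. MA24 rat 14N was far below its group in *Kcnc1* (47.4 CPM, the others 63.9 to 67.4, gap 0.850 of the range) and *Kcnn3* (13.0 CPM, the others 17.5 to 18.5, gap 0.843). Non-addicted rat 13 was far above in *Kcnc2* (8.27 CPM, the others 6.81 to 6.89, gap 0.938). In MA12, rat 4N was far above in *Kcnq5* (163 CPM, the others 150.5 to 152, gap 0.850) and rat 7N in *Kcnt1* (200.2 CPM, the others 153 to 159, gap 0.849).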

How the results depend on the processing

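Potassium channel genes past both thresholds in MA24 vs. MA12 numbered 6, and 3 with rat number kind as a covariate (6.25%, against 0.437% of all genes). Leaving out 1 rat at a time gave 4 (without 14N, 8.7% against 1.2%) to 12 (without 9N, 25% against 4.06%). At any FC the count was 11, 5 among N-numbered rats, 3 with the covariate and 7 (without 14N or 21) to 16 (without 9N) leaving out 1 rat. The shares of all genes in these fits at any FC are given above. Other filters, RLE factors, DESeq2 and the likelihood ratio test gave 4 to 9 (with 1.54% to 3.53% of all genes) and 9 to 15 (with 4.15% to 10.8%). For non-addicted vs. MA12 the 1 call became 4 with FC 1.5 and 6 at any FC in DESeq2, 4 by either rule in the likelihood ratio test, and 2 among rats without N. The shares of all genes by these rules were 0.741% and 1.71% in DESeq2, 0.809% and 1.52% in the likelihood ratio test, and 0.583% and 0.63% without N. Leaving out 1 rat gave 1 to 4 (without 7N or 13, with 0.863% and 0.78% of all genes) and 1 to 5 (without 7N, with 1.06%). For non-addicted vs. MA24 leaving out 1 rat gave 0 to 1 at any FC (*Kcnd3* without rat 13, log2FC 0.50, with 2.47% of all genes). Of the log2FC values of 20 genes, 26 of 957 alternatives turned in sign, none of a called gene in its own comparison. Leaving out 1 rat, MA24 vs. MA12 ranged from -0.11 to 0.11 for *Kcnab2*, -0.05035 to 0.23 for *Kcnn2* and -0.15 to 0.024 for *Kcnn3*. Non-addicted vs. MA12 ranged from -0.13 to 0.089 for *Kcnab2*, -0.0089 to 0.19 for *Kcnd3*, -0.11 to 0.031 for *Kcnmb4* and -0.076 to -0.024 for *Kcnd2*. Among rats without N these were 0.11, -0.10, 0.12 and 0.027. Non-addicted vs. MA24 ranged from -0.16 to 0.10 for *Kcnab2*, -0.14 to 0.017 for *Kcnc1*, -0.30 to 0.028 for *Kcnc2*, -0.0125 to 0.30 for *Kcns2* and -0.19 to -0.017 for *Kcnip2*. Without rats 14N and 9, *Kcnip2* was 0.013 and *Kcns2* -0.0062. The cause of these moves was not tested. Low counts limit *Kcnh5* and *Kcns3* most.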
